A study of Homo sapiens with 12 samples.

Results

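The genes described here are 43 enzymes and activator proteins other than the cathepsins, most of them of the lysosomal lumen. HGSNAT, a membrane enzyme, and SUMF1, of the endoplasmic reticulum, are among them. All were taken by symbol from a list and sorted into 5 substrate classes. The classes are glycans, sulfate esters, lipids, peptides, and nucleic acids with phosphate esters. Of the 43 genes, 42 stood among the 17085 genes of the count table, and all 42 passed the filter on low counts that left 12841 genes for testing. ACP5 passed it only through the treated groups, where it was high. GALC was not analysed here. The tested members were 14 glycan, 7 sulfate, 10 lipid, 7 peptide and 4 nucleic acid and phosphate genes.

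The RNA came from 786-O, an established human cell line from a clear cell renal carcinoma, given in the labels as wild type. Cells were kept for 24 h in DMSO as the vehicle, in everolimus, in 1.5 µM SGI-1027, or in 5 µM everolimus together with 1.5 µM SGI-1027, with 3 libraries in each of the 4 groups. For the cells given everolimus alone, the sample label and the study's methods state 5 µM and the deposited treatment protocol states 10 µM, so comparisons of that group with the combination may or may not be at a matched dose. The plots name the groups DMSO, EVER, SGI and COMB. Whether replicate libraries stem from separate cultures is not stated, and the p-values then measure only the spread between them.

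Lysosomal hydrolases are made in the endoplasmic reticulum, mostly tagged with mannose 6-phosphate in the Golgi and delivered to an acidic compartment, where they act in sequence, so that the loss of a single enzyme lets its substrate pile up in a storage disease. Many of their genes carry E-box-like promoter elements read by TFEB, TFE3 and MITF, transcription factors that mTORC1 keeps out of the nucleus while nutrients are plentiful. Everolimus is a rapamycin analog that inhibits mTORC1, and SGI-1027 is a quinoline compound known as an inhibitor of DNA methyltransferases.

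The libraries held between 37046231 and 41516976 counts, and their TMM scaling factors lay between 0.990 and 1.01. All 8 renal epithelial markers listed were detected, whereas no leukocyte marker passed 0.436 and no endothelial marker passed 0.314 normalized CPM in any library. DMSO library 1 and SGI-1027 library 3 differed more from the others of their group (chi-square per gene 10.2 to 16.4) than the remaining replicate pairs differed from each other (3.04 to 5.48). In bulk libraries a change in the RNA of each cell and a change in the mix of cells cannot be told apart.

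Most of these genes rose in every treated group. With everolimus 31 of the 42 members were higher than with DMSO at an adjusted p under 0.05 and 1 was lower, where 27.2% of all tested genes were higher and 29.2% were lower. SGI-1027 raised 35 and lowered 1, beside 32.0% and 30.6% of all genes. The combination raised 36 and lowered 1, beside 32.8% and 33.4%. The lower member was GLA in each case. For 32, 34 and 36 members all treated libraries lay above all DMSO libraries, beside 30.6%, 32.5% and 34.5% of all tested genes. For 1, 2 and 1 members they lay below, beside 32.3%, 30.7% and 34.7%. Over the members the median log2 change against DMSO came to 0.34 for everolimus, 0.55 for SGI-1027 and 0.62 for both drugs. The median of all tested genes was 0.0013, 0.017 and 0.0074, which the TMM scaling places near 0. Changes are thus relative to the other RNA, and the total RNA per cell was not measured. Without DMSO library 1 and SGI-1027 library 3 together, the counts of higher members were 32, 35 and 36, with 1 lower in each comparison.

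The members were summed on a scale that allows different genes to be added, the deposited FPKM rescaled so that each library totals 1000000. On this scale their joint level was 2789 ± 22.4 with DMSO (SD, n = 3), 3775 ± 10.9 with everolimus, 4571 ± 117 with SGI-1027 and 5302 ± 135 with both drugs, a 1.35-, 1.64- and 1.90-fold level relative to DMSO. No library of one group overlapped another group. By class, the combination level relative to DMSO was 1.53-fold for glycan genes, 1.54-fold for sulfate genes, 1.89-fold for lipid genes, 2.22-fold for peptide genes and 1.78-fold for nucleic acid and phosphate genes. These folds of sums follow the most abundant genes. GRN, a precursor protein listed with the peptide genes, made up 59.9% of the peptide sum with the combination. Without GRN that class rose 1.49-fold. The lipid genes without PSAP rose 1.70-fold, and the nucleic acid and phosphate genes without DNASE2 rose 1.17-fold. The sulfate genes without IDS rose 1.65-fold, more than with it, and the glycan genes without NEU1 rose 1.43-fold. By the median log2 fold change of single genes the order was different, with 0.85 for nucleic acid and phosphate, 0.69 for glycan, 0.62 for peptide, 0.56 for lipid and 0.56 for sulfate genes. The sulfate genes were the class in which SGI-1027 alone (144 ± 7.87) and the combination (147 ± 7.19) overlapped.

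**Figure D1:**
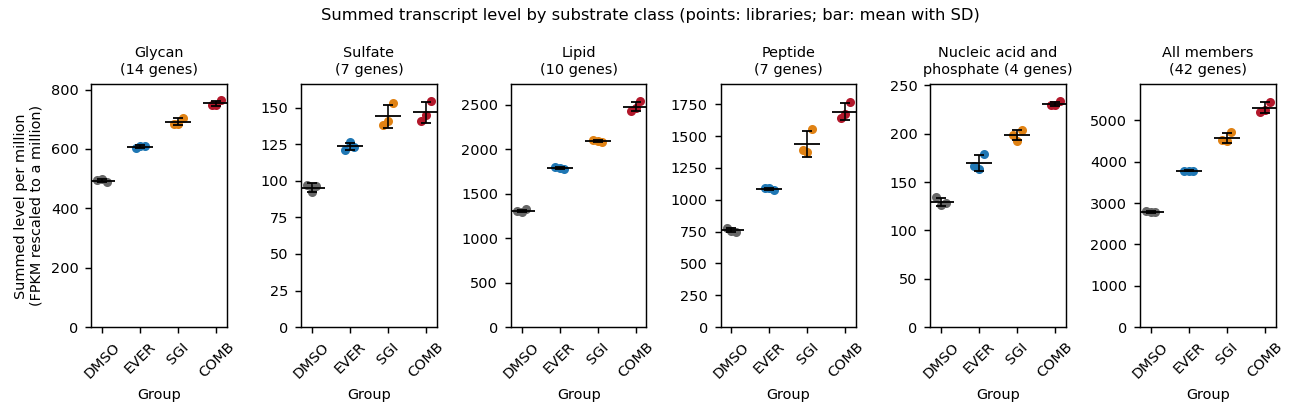
Summed transcript level of each substrate class in each library, as deposited FPKM rescaled to 1000000 (vertical axis, from 0), by treatment group (horizontal axis); points are libraries and the bar is the mean with its SD (n = 3). The joint level of all members climbed from about 2789 with DMSO to 5302 with the combination, and the sulfate panel is the one in which SGI and COMB overlap.

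A few genes held much of this pool. PSAP, the precursor of the saposins that present sphingolipids to their hydrolases, made up 24.6% of the summed level with DMSO and 26.8% with the combination. GRN, which encodes progranulin, the precursor of the lysosomal granulins, grew from 11.0% to 19.1%. Together they supplied 57.3% of the rise between DMSO and the combination, and the remaining 40 members still rose 1.60-fold, from 1797 ± 39.1 to 2868 ± 25.5. NPC2, a cholesterol carrier of the lumen, held 9.005% with DMSO and 10.4% with the combination. LGMN, an asparaginyl endopeptidase, went the other way, from 5.18% to 3.60%. The members at the bottom of the pool in DMSO were ACP5, ARSG and SGSH.

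For 27 of the 42 members (64.3%) the group means ran in the order DMSO, everolimus, SGI-1027, combination, against 13.9% of all tested genes. In 14 members (33.3%, against 2.55% of all genes) no library of neighbouring groups overlapped either. These 14 were GLB1, HEXA, IDUA, NAGLU, MANBA, AGA, NEU1, ASAH1, PSAP, TPP1, DPP7, GRN, DNASE2 and ACP5, and they included members of every class but the sulfate genes. Of the 14, ACP5 passed the filter on low counts only through the treated groups.

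**Figure D2:**
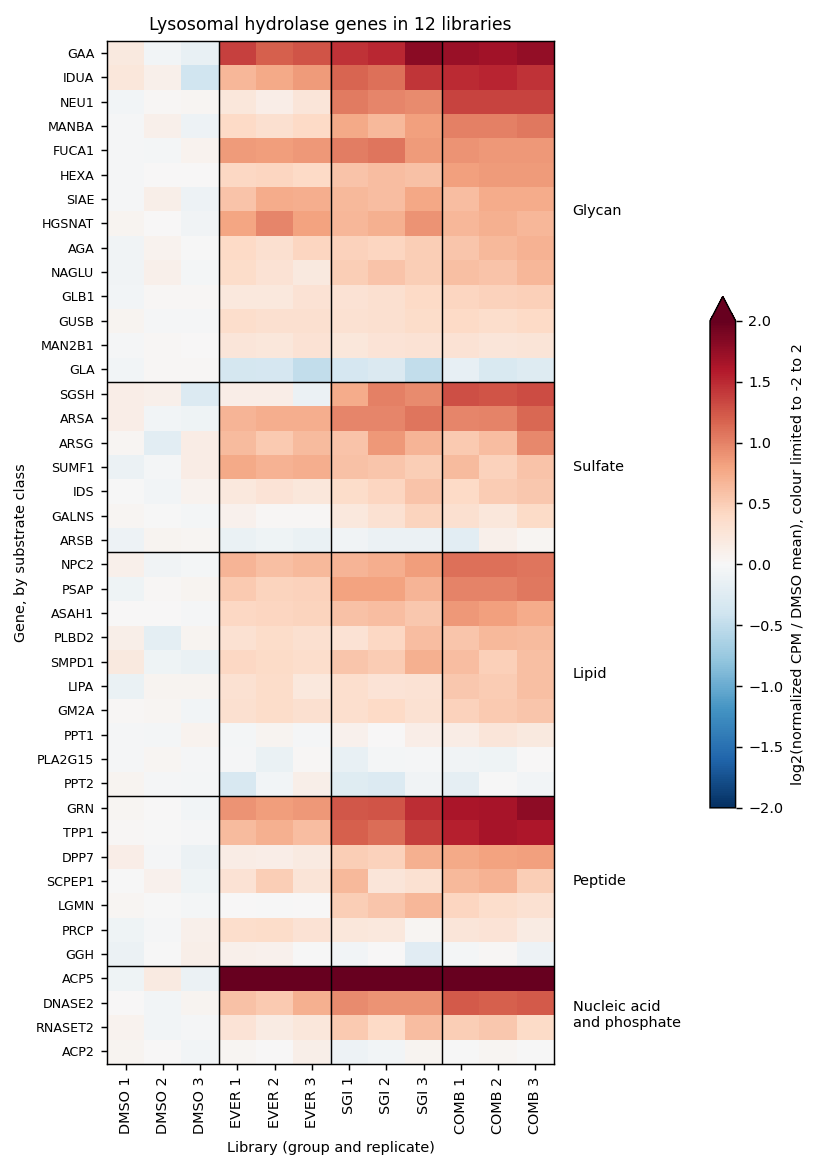
Level of each of the 42 genes (vertical axis, by substrate class and then by combination change) in the 12 libraries (horizontal axis), coloured by the log2 ratio of normalized CPM to the DMSO mean, with the colour scale limited to -2 to 2. Most genes are redder in all 9 treated libraries than in DMSO, GLA is blue there, and ACP5 passes the end of the scale.

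The promoters of the members were searched for the E-box CACGTG, for its longer forms TCACGTGA and the 10-base form with a G before and a C after TCACGTGA, and for the related TCATGTGA, on both strands, because factors of the MiT/TFE family read such elements. The longer forms contain CACGTG, so a match of the 10-base form counts under all 3. The windows were RefSeq promoters of GRCh38.p14 from 250 bases before to 50 bases after a transcription start, and 32 members had at least 1 among 35116 windows. CACGTG occurred in 9 of the 32 members (SUMF1, ARSB, NEU1, DPP7, PLBD2, GALNS, SCPEP1, GAA and ACP5) and in 8.77% of the 27305 genes with a window. By window it was in 9 of the 43 member windows and in 7.26% of all windows, or 9.20% of the windows of tested genes. TCACGTGA occurred in 4 members (1.18% of genes, 0.980% of all windows), the 10-base form in PLBD2, GALNS and GAA (0.421% of genes, 0.353% of windows) and TCATGTGA in PPT1, TPP1, GRN and ACP5 (1.24% of genes, 1% of windows). Among the windows of tested genes these last 3 motifs occurred, in the same order, in 1.67%, 0.667% and 0.850%. HEXA, NAGLU, HGSNAT, MANBA, SGSH, ARSA, ASAH1, PSAP, LGMN and GGH had no window in the table. Stretches around the matches follow for 7 members, 5′ to 3′ on the strand of the gene, with the matched motif, or its reverse complement TCACATGA, in capitals. They are shown because GAA, NEU1, TPP1 and GRN had some of the highest member fold changes and PLBD2, GALNS and SCPEP1 carry the longer forms with smaller changes. The choice thus rests in part on fold change. SUMF1, ARSB, DPP7, PPT1 and ACP5 also have a match and are not shown. Their combination log2 fold changes were 0.56, -0.016, 0.79, 0.20 and 5.13.
GAA: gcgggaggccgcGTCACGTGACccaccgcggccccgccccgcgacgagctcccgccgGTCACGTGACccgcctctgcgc
PLBD2: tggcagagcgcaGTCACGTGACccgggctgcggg
GALNS: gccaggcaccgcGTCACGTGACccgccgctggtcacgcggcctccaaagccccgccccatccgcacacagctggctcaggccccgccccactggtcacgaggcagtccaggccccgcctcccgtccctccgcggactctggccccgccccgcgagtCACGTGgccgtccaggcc
SCPEP1: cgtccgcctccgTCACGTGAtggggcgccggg
NEU1: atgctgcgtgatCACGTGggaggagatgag
TPP1: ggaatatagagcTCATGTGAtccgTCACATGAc
GRN: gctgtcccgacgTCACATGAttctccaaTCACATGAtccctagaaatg
In GRCh38.p14 these lie at chr17:80101491-80101569 (plus strand), chr12:113358549-113358582 (plus), chr16:88856962-88857135 (minus), chr17:56978091-56978122 (plus), chr6:31862930-31862959 (minus), chr11:6619423-6619455 (minus) and chr17:44345067-44345114 (plus), all upstream of the annotated start. The GAA stretch holds the 10-base form 2 times. With the combination 8 of the 9 members with CACGTG were higher than with DMSO, as were 19 of the 23 members with a window but without it. The exception with a match to CACGTG was ARSB. For TCACGTGA and for TCATGTGA all 4 members with a match were higher, as were 23 of the 28 without. For the 10-base form all 3 with a match were higher, as were 24 of the 29 without. PLBD2, GALNS and SCPEP1 had combination log2 fold changes of 0.62, 0.31 and 0.62, beside 1.72 for GAA with the same core. A match describes the letters in a window and does not show that a factor binds there.

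Glycan genes, the largest class, had the most calls against DMSO. With each single drug and with the combination 13 of the 14 (92.9%) rose and GLA fell. Among all tested genes 27.2%, 32.0% and 32.8% were higher, shares that also stand beside the class counts below. The median log2 fold changes of the glycan genes were 0.38, 0.64 and 0.69. GAA, the acid alpha-glucosidase that breaks down lysosomal glycogen, had 7.86, 6.61 and 6.18 normalized CPM with DMSO, 17.7, 15.7 and 16.5 with everolimus, 18.8, 19.6 and 24.0 with SGI-1027 and 22.9, 21.9 and 23.3 with both drugs. All treated libraries lay above the DMSO libraries, and those of SGI-1027 and the combination overlapped. Relative to DMSO, GAA changed on the log2 scale by 1.27 ± 0.10 (SE, adjusted p = 8.28e-09) with everolimus, 1.60 ± 0.10 (SE, adjusted p = 2.00e-10) with SGI-1027 and 1.72 ± 0.10 (SE, adjusted p = 4.24e-11) with both drugs. The combination differed from SGI-1027 alone by 0.13 ± 0.09 (SE, adjusted p = 0.359) over all libraries. This difference passed the test in 2 of 21 alternative settings, both without SGI-1027 library 3, whose GAA level was the highest of all. Leaving out only that library, which widens the gap by construction, gave 0.25 (adjusted p = 0.0378). Without SGI-1027 library 1 or 2 the difference was 0.061 or 0.091 (adjusted p = 0.731 and 0.597).

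IDUA, the alpha-L-iduronidase that trims heparan and dermatan sulfate, had 9.15, 8.33 and 5.89 normalized CPM with DMSO, 12.4, 13.1 and 14.1 with everolimus, 17.4, 16.7 and 21.0 with SGI-1027 and 21.96, 22.3 and 21.2 with both drugs. The 4 groups did not overlap, although SGI-1027 library 3 came close to the combination. Its log2 fold changes were 0.76 ± 0.12 (SE, adjusted p = 3.74e-05) with everolimus, 1.24 ± 0.12 (SE, adjusted p = 6.10e-08) with SGI-1027 and 1.49 ± 0.12 (SE, adjusted p = 3.53e-09) with both drugs. IDUA shares 534 exonic bases with SLC26A1 on the opposite strand, and the sources do not say whether strand was used in counting. SLC26A1 itself was lower in each treated group, with log2 fold changes of -0.65, -0.91 and -1.32. NEU1, the sialidase that opens the breakdown of sialylated glycans, had 49.2, 51.9 and 52.3 normalized CPM with DMSO, 59.99, 55.8 and 60.7 with everolimus, 105, 101 and 98.5 with SGI-1027 and 129.9, 129.8 and 130.4 with both drugs. The everolimus libraries stood only just above DMSO, while SGI-1027 raised the level well beyond either and the combination went further, with no overlap between groups. NEU1 rose on the log2 scale by 0.20 ± 0.045 (SE, adjusted p = 0.00102) with everolimus, 0.99 ± 0.045 (SE, adjusted p = 3.08e-12) with SGI-1027 and 1.35 ± 0.045 (SE, adjusted p = 2.73e-14) with both drugs, and the combination exceeded SGI-1027 by 0.36 ± 0.043 (SE, adjusted p = 8.59e-06).

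MANBA, the beta-mannosidase of the last step of N-glycan breakdown, had 17.1, 18.6 and 16.2 normalized CPM with DMSO, 22.9, 21.6 and 22.8 with everolimus, 29.3, 27.0 and 30.5 with SGI-1027 and 34.9, 34.7 and 35.9 with both drugs. Its groups rose in steps without overlap. The log2 fold changes were 0.37 ± 0.066 (SE, adjusted p = 1.06e-04) with everolimus, 0.74 ± 0.065 (SE, adjusted p = 1.70e-08) with SGI-1027 and 1.02 ± 0.064 (SE, adjusted p = 1.41e-10) with both drugs, and its exons overlap those of the pseudogene LRRC37A15P on the same strand over 1138 bases. FUCA1, which removes alpha-linked fucose, had 20.02, 19.8 and 21.4 normalized CPM with DMSO, 36.9, 36.5 and 37.3 with everolimus, 41.3, 42.7 and 36.7 with SGI-1027 and 38.2, 37.3 and 37.3 with both drugs. All treated libraries were above DMSO, and the 3 treated groups overlapped one another. Its log2 fold changes were 0.85 ± 0.059 (SE, adjusted p = 1.42e-09) with everolimus, 0.98 ± 0.059 (SE, adjusted p = 1.26e-10) with SGI-1027 and 0.88 ± 0.059 (SE, adjusted p = 3.66e-10) with both drugs. SIAE, an esterase that removes acetyl groups from sialic acids, followed the same course at 18.6, 20.4 and 17.6 normalized CPM with DMSO, 27.9, 31.6 and 31.1 with everolimus, 29.6, 28.99 and 32.2 with SGI-1027 and 28.9, 31.6 and 31.5 with both drugs. No treated library reached down to the DMSO libraries, and the treated groups overlapped one another. For SIAE the log2 fold changes were 0.68 ± 0.071 (SE, adjusted p = 2.42e-07) with everolimus, 0.68 ± 0.071 (SE, adjusted p = 1.70e-07) with SGI-1027 and 0.70 ± 0.071 (SE, adjusted p = 8.31e-08) with both drugs. It shares 2286 exonic bases with TBRG1 on the opposite strand, which changed by 0.21, 0.26 and 0.36, and the part of those reads in the SIAE values was not tested.

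HGSNAT, the membrane acetyltransferase that prepares heparan sulfate for further cleavage, was highest with everolimus alone. It had 37.2, 35.9 and 34.0 normalized CPM with DMSO, 61.8, 70.2 and 62.5 with everolimus, 56.7, 58.2 and 66.7 with SGI-1027 and 56.5, 58.3 and 56.3 with both drugs. The everolimus libraries stayed above the combination libraries, and those of SGI-1027 overlapped both. The log2 fold changes were 0.86 ± 0.064 (SE, adjusted p = 3.39e-09) with everolimus, 0.76 ± 0.064 (SE, adjusted p = 1.06e-08) with SGI-1027 and 0.68 ± 0.064 (SE, adjusted p = 3.87e-08) with both drugs, and the combination lay below everolimus with a log2 difference of -0.18 ± 0.062 (SE, adjusted p = 0.025), a call lost in 5 of 21 alternative settings. GLA, the alpha-galactosidase A that acts on globotriaosylceramide, was the one member to fall. It had 33.4, 35.3 and 35.4 normalized CPM with DMSO, 27.2, 27.4 and 24.6 with everolimus, 27.5, 28.3 and 24.7 with SGI-1027 and 31.1, 28.0 and 29.1 with both drugs. Every treated library lay below every DMSO library. GLA changed on the log2 scale by -0.40 ± 0.065 (SE, adjusted p = 4.88e-05) with everolimus, -0.37 ± 0.065 (SE, adjusted p = 7.47e-05) with SGI-1027 and -0.24 ± 0.065 (SE, adjusted p = 0.00349) with both drugs.

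The other 6 glycan genes also rose in each treated group. HEXA, the alpha subunit of beta-hexosaminidase, changed by 0.41 with everolimus, 0.59 with SGI-1027 and 0.84 with both drugs, and AGA, which cuts the sugar-asparagine bond, by 0.39 with everolimus, 0.46 with SGI-1027 and 0.64 with both drugs. NAGLU, an alpha-N-acetylglucosaminidase of heparan sulfate, changed by 0.29 with everolimus, 0.52 with SGI-1027 and 0.61 with both drugs. GLB1, the beta-galactosidase of GM1 ganglioside, changed by 0.23 with everolimus, 0.34 with SGI-1027 and 0.46 with both drugs. GUSB, the beta-glucuronidase, and MAN2B1, the lysosomal alpha-mannosidase, reached a similar level in all 3 treated groups, GUSB at 0.33 with everolimus, 0.34 with SGI-1027 and 0.39 with both drugs and MAN2B1 at 0.25 with everolimus, 0.26 with SGI-1027 and 0.26 with both drugs. GUSB has partial copies elsewhere in the genome, which leaves its counts less certain. By GENCODE release 29, HEXA, NAGLU, MAN2B1 and RNASET2 overlap same-strand gene models over 617, 379, 704 and 434 exonic bases.

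Of the 7 sulfate genes, 4 rose with everolimus, 6 with SGI-1027 and 6 with both drugs, and none passed the test between the combination and SGI-1027 alone in the fit of all 12 libraries. SGSH, the sulfamidase of heparan sulfate, had 2.60, 2.55 and 1.96 normalized CPM with DMSO, 2.59, 2.61 and 2.19 with everolimus, 3.98, 4.80 and 4.57 with SGI-1027 and 5.78, 5.67 and 5.89 with both drugs. The everolimus libraries overlapped DMSO, while SGI-1027 and the combination stood apart from both and from each other. The SGSH differences from DMSO on the log2 scale were 0.057 ± 0.15 (SE, adjusted p = 0.775) with everolimus, 0.90 ± 0.14 (SE, adjusted p = 2.73e-05) with SGI-1027 and 1.28 ± 0.14 (SE, adjusted p = 2.65e-07) with both drugs. Its combination level differed from that of SGI-1027 by 0.38 ± 0.13 (SE, adjusted p = 0.0536), which just missed the threshold and passed it in 6 of 21 alternative settings, among them the edgeR fit of 2 groups only (adjusted p = 0.0463) and DESeq2 (adjusted p = 0.0352). SGSH shares 153 exonic bases with CARD14 on the opposite strand. ARSA, the arylsulfatase that removes sulfate from sulfatides, had 28.1, 24.8 and 24.3 normalized CPM with DMSO, 41.3, 42.5 and 42.7 with everolimus, 50.6, 50.4 and 53.9 with SGI-1027 and 50.7, 51.3 and 56.9 with both drugs. Everolimus lay between DMSO and the other 2 groups, which overlapped. Its log2 fold changes were 0.71 ± 0.062 (SE, adjusted p = 2.39e-08) with everolimus, 1.01 ± 0.061 (SE, adjusted p = 1.39e-10) with SGI-1027 and 1.04 ± 0.061 (SE, adjusted p = 5.52e-11) with both drugs.

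SUMF1, which is resident in the endoplasmic reticulum and makes the formylglycine that all sulfatases need, had 26.7, 28.2 and 32.3 normalized CPM with DMSO, 49.0, 47.1 and 48.1 with everolimus, 43.4, 42.7 and 40.8 with SGI-1027 and 45.2, 40.2 and 43.2 with both drugs. All treated libraries were above DMSO, with everolimus alone above both groups that received SGI-1027. SUMF1 rose on the log2 scale by 0.72 ± 0.064 (SE, adjusted p = 3.17e-08) with everolimus, 0.54 ± 0.064 (SE, adjusted p = 9.29e-07) with SGI-1027 and 0.56 ± 0.064 (SE, adjusted p = 4.78e-07) with both drugs. The lower level with the combination than with everolimus (-0.17 ± 0.063 SE, adjusted p = 0.0444) was called by a narrow margin and lost in 11 of 21 alternative settings. ARSB, the sulfatase of dermatan and chondroitin sulfate, had 21.3, 23.8 and 23.6 normalized CPM with DMSO, 20.9, 21.6 and 20.8 with everolimus, 21.9, 21.1 and 21.0 with SGI-1027 and 19.9, 24.5 and 23.6 with both drugs. All groups overlapped, and the log2 fold changes were -0.12 ± 0.073 (SE, adjusted p = 0.18) with everolimus, -0.10 ± 0.073 (SE, adjusted p = 0.228) with SGI-1027 and -0.016 ± 0.073 (SE, adjusted p = 0.854) with both drugs. Among the rest, IDS, the iduronate sulfatase, rose in each group by 0.24 with everolimus, 0.46 with SGI-1027 and 0.48 with both drugs. GALNS, a sulfatase of keratan and chondroitin sulfate, had values of 0.042 with everolimus, which did not pass the test, and of 0.33 and 0.31 with SGI-1027 and the combination, which did. ARSG, a sulfatase of heparan sulfate near the bottom of the pool, changed by 0.60 with everolimus, 0.71 with SGI-1027 and 0.72 with both drugs. Its exons overlap WIPI1 on the opposite strand over 828 bases, and WIPI1 changed by 0.75, 0.67 and 0.85. IDS shares 1529 exonic bases with a same-strand gene model and also has a pseudogene copy, so its counts are less certain.

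Lipid genes rose in 7 of 10 cases with everolimus, in 7 with SGI-1027 and in 8 with both drugs. PSAP had 647, 704 and 721 normalized CPM with DMSO, 992, 944 and 949.6 with everolimus, 1211, 1205 and 1100.4 with SGI-1027 and 1370.4, 1375 and 1429 with both drugs. The 4 groups rose in steps with no overlap. In log2 units PSAP rose by 0.48 ± 0.044 (SE, adjusted p = 5.82e-08) with everolimus, 0.76 ± 0.045 (SE, adjusted p = 7.75e-11) with SGI-1027 and 1.01 ± 0.045 (SE, adjusted p = 1.04e-12) with both drugs, and the step from SGI-1027 to the combination was 0.25 ± 0.044 (SE, adjusted p = 5.33e-04). NPC2 had 122, 109 and 110.0 normalized CPM with DMSO, 182, 172 and 178 with everolimus, 182, 188 and 203 with SGI-1027 and 244, 245 and 239 with both drugs. Everolimus and SGI-1027 overlapped, and the combination libraries stood clear of both. NPC2 rose in log2 units by 0.65 ± 0.049 (SE, adjusted p = 3.99e-09) with everolimus, 0.75 ± 0.049 (SE, adjusted p = 3.00e-10) with SGI-1027 and 1.10 ± 0.049 (SE, adjusted p = 1.10e-12) with both drugs, with a difference of 0.34 ± 0.048 (SE, adjusted p = 4.22e-05) between the combination and SGI-1027 alone. PPT2, a lysosomal thioesterase related to PPT1, had 16.5, 15.7 and 15.4 normalized CPM with DMSO, 12.7, 15.2 and 17.2 with everolimus, 13.4, 13.1 and 15.2 with SGI-1027 and 13.99, 15.7 and 15.2 with both drugs. The SGI-1027 libraries lay below those of DMSO and the other groups overlapped DMSO, but no difference passed the test. Its log2 fold changes were -0.074 ± 0.094 (SE, adjusted p = 0.527) with everolimus, -0.19 ± 0.094 (SE, adjusted p = 0.0879) with SGI-1027 and -0.082 ± 0.094 (SE, adjusted p = 0.453) with both drugs. PPT2 shares 1449 exonic bases with the readthrough gene PPT2-EGFL8.

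ASAH1, the acid ceramidase, rose by 0.43 with everolimus, 0.59 with SGI-1027 and 0.81 with both drugs. GM2A, the activator that lifts GM2 ganglioside to HEXA, rose by 0.33 with everolimus, 0.35 with SGI-1027 and 0.51 with both drugs. SMPD1, the acid sphingomyelinase, rose by 0.38 with everolimus, 0.59 with SGI-1027 and 0.57 with both drugs, with SGI-1027 and the combination overlapping. LIPA, the acid lipase for cholesteryl esters and triglycerides, rose by 0.30 with everolimus, 0.30 with SGI-1027 and 0.55 with both drugs, and the single-drug groups overlapped. PLBD2, a phospholipase B-like protein, rose by 0.33 with everolimus, 0.45 with SGI-1027 and 0.62 with both drugs. PPT1, the thioesterase that removes palmitate from proteins, passed the test only with the combination, and its log2 values were -0.0047 with everolimus, 0.075 with SGI-1027 and 0.20 with both drugs. It shares 1189 exonic bases with CAP1 on the opposite strand, whose combination log2 fold change was -0.13. PLA2G15, the lysosomal phospholipase A2, did not pass in any comparison with DMSO, with values of -0.042 with everolimus, -0.07 with SGI-1027 and -0.047 with both drugs.

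**Figure D3:**
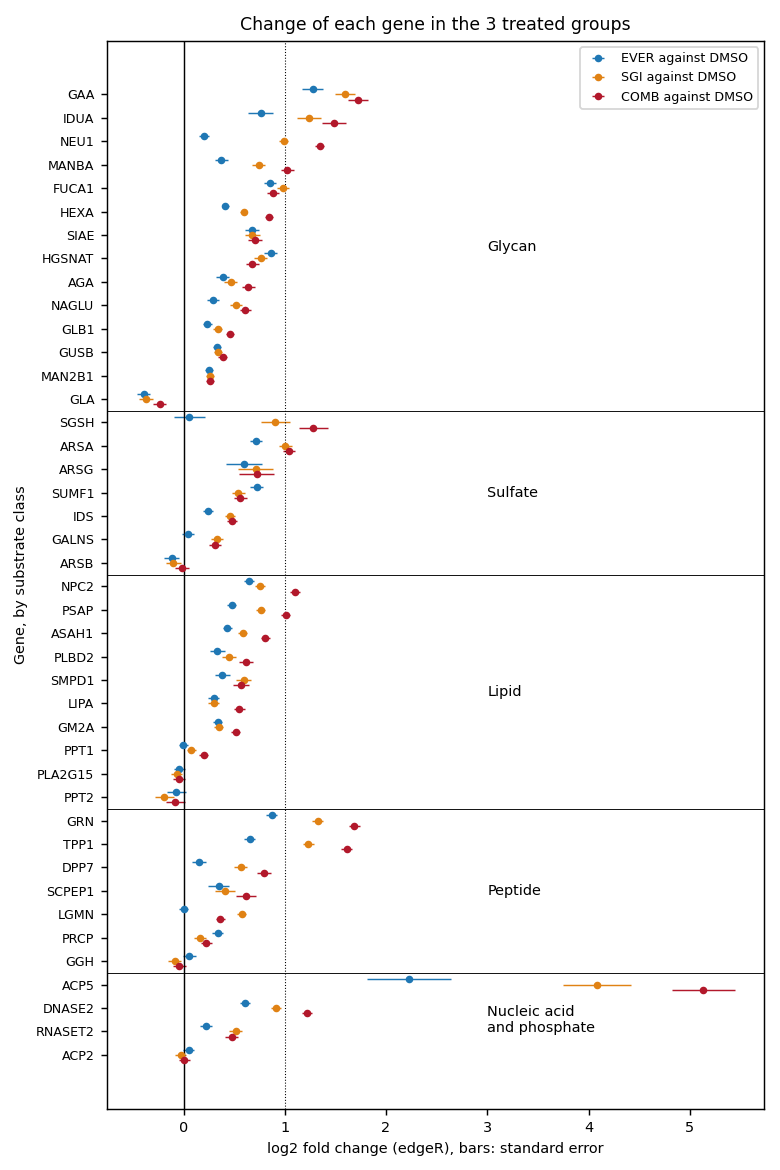
Log2 fold change against DMSO (horizontal axis, edgeR, bars are standard errors) of each gene (vertical axis, by substrate class) for everolimus, SGI-1027 and the combination; the dotted line marks a log2 fold change of 1. The combination passes that line for 12 genes, SGI-1027 for 6 and everolimus for GAA and ACP5, and GLA is left of 0 in all 3 groups.

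Peptide genes rose in 4 of 7 cases with everolimus, in 6 with SGI-1027 and in 6 with both drugs, with a median log2 fold change of 0.62 for the last. TPP1, a tripeptidyl peptidase that is lost in a childhood neuronal storage disease, had 61.0, 59.2 and 59.1 normalized CPM with DMSO, 92.3, 97.4 and 92.2 with everolimus, 136, 129.9 and 155 with SGI-1027 and 176, 188 and 184 with both drugs. The groups rose in steps without overlap, ending 3.06-fold above DMSO in the edgeR estimate. In log2 units TPP1 rose by 0.65 ± 0.055 (SE, adjusted p = 1.80e-08) with everolimus, 1.23 ± 0.055 (SE, adjusted p = 2.53e-12) with SGI-1027 and 1.61 ± 0.055 (SE, adjusted p = 3.79e-14) with both drugs, and the combination exceeded SGI-1027 by 0.38 ± 0.053 (SE, adjusted p = 4.41e-05). TPP1 shares 756 exonic bases with a same-strand gene model, which leaves its counts less certain. GRN had 292, 284 and 273 normalized CPM with DMSO, 529, 504 and 518 with everolimus, 669, 675 and 784 with SGI-1027 and 874, 884 and 973 with both drugs. Its groups were ordered in the same way and did not overlap. For GRN the log2 fold changes were 0.87 ± 0.055 (SE, adjusted p = 4.29e-10) with everolimus, 1.33 ± 0.055 (SE, adjusted p = 1.19e-12) with SGI-1027 and 1.69 ± 0.056 (SE, adjusted p = 2.63e-14) with both drugs, with 0.36 ± 0.054 (SE, adjusted p = 9.74e-05) between the combination and SGI-1027. GGH, which shortens the polyglutamate tail of folates, had 79.4, 85.3 and 93.7 normalized CPM with DMSO, 92.0, 91.0 and 85.4 with everolimus, 83.2, 86.9 and 73.3 with SGI-1027 and 83.6, 87.5 and 79.9 with both drugs. All groups overlapped, and the log2 fold changes were 0.055 ± 0.064 (SE, adjusted p = 0.491) with everolimus, -0.087 ± 0.064 (SE, adjusted p = 0.251) with SGI-1027 and -0.042 ± 0.064 (SE, adjusted p = 0.578) with both drugs.

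LGMN had 123, 119.7 and 116 normalized CPM with DMSO, 120.1, 119.6 and 119.8 with everolimus, 169, 175 and 190.0 with SGI-1027 and 160.4, 153 and 148 with both drugs. The everolimus libraries coincided with DMSO, SGI-1027 lay above all others, and the combination came between. The log2 fold changes of LGMN were 0.00093 ± 0.046 (SE, adjusted p = 0.989) with everolimus, 0.57 ± 0.045 (SE, adjusted p = 4.71e-09) with SGI-1027 and 0.36 ± 0.045 (SE, adjusted p = 1.35e-06) with both drugs, and the combination lay below SGI-1027 alone with a log2 difference of -0.21 ± 0.045 (SE, adjusted p = 0.00249). The single drugs differed by 0.57 ± 0.045 (SE, adjusted p = 3.89e-08). DPP7, a dipeptidyl peptidase, showed log2 values of 0.15 with everolimus, which did not pass the test, and rose by 0.56 with SGI-1027 and 0.79 with both drugs. PRCP, a carboxypeptidase that acts after proline, was highest with everolimus and rose by 0.34 with everolimus, 0.16 with SGI-1027 and 0.23 with both drugs, where the SGI-1027 call was lost in 5 of 21 alternative settings. SCPEP1, a serine carboxypeptidase, rose by 0.35 with everolimus, 0.41 with SGI-1027 and 0.62 with both drugs.

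**Figure D4:**
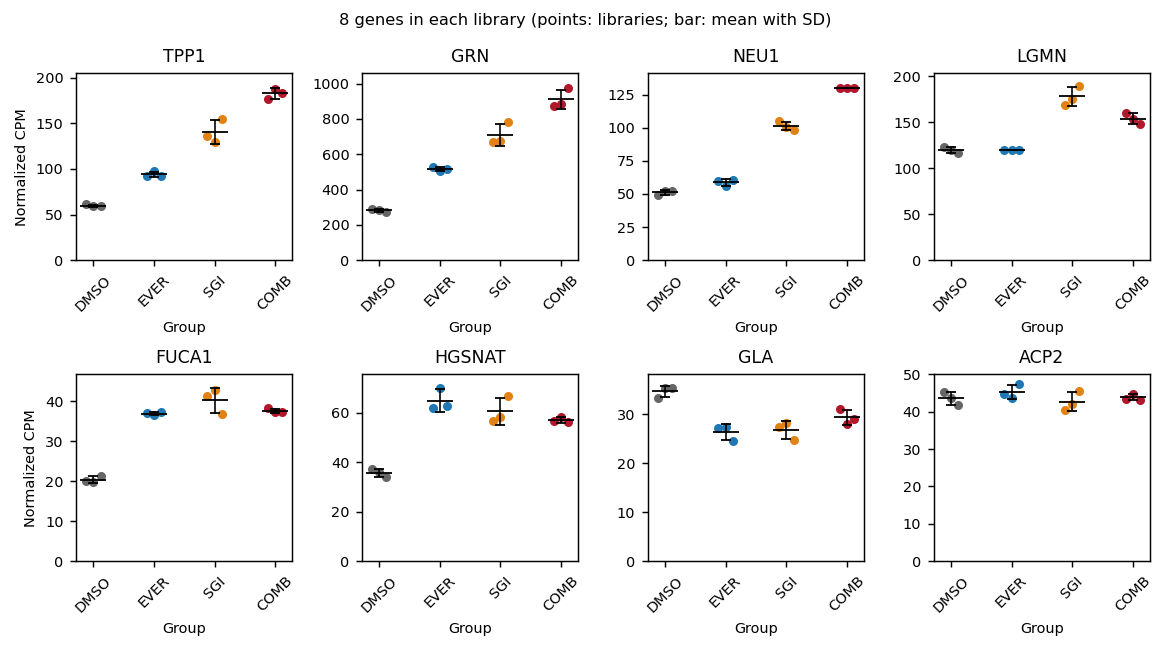
Normalized CPM (vertical axis, from 0) of 8 genes chosen after their values were seen, by treatment group (horizontal axis); points are libraries and the bar is the mean with its SD (n = 3). TPP1 and GRN climb in steps, NEU1 and LGMN move mainly with SGI-1027, FUCA1 levels off, HGSNAT is highest with everolimus, GLA falls and the ACP2 groups overlap.

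Among the 4 nucleic acid and phosphate genes, 3 rose in each treated group. DNASE2, the acid DNase of the lysosome, had 46.1, 44.2 and 47.5 normalized CPM with DMSO, 69.3, 66.2 and 75.0 with everolimus, 88.2, 85.3 and 85.8 with SGI-1027 and 108, 105 and 108 with both drugs. The 4 groups rose in steps without overlap. Its log2 fold changes were 0.61 ± 0.049 (SE, adjusted p = 8.57e-09) with everolimus, 0.91 ± 0.049 (SE, adjusted p = 2.24e-11) with SGI-1027 and 1.22 ± 0.048 (SE, adjusted p = 2.49e-13) with both drugs, with 0.31 ± 0.047 (SE, adjusted p = 1.08e-04) between the combination and SGI-1027. RNASET2, the acid RNase, rose by 0.22 with everolimus, 0.51 with SGI-1027 and 0.47 with both drugs. ACP2, the lysosomal acid phosphatase, had 45.2, 43.8 and 41.9 normalized CPM with DMSO, 44.6, 43.7 and 47.3 with everolimus, 40.5, 41.99 and 45.5 with SGI-1027 and 43.5, 44.8 and 43.3 with both drugs. All groups overlapped for ACP2, and its log2 fold changes were 0.052 ± 0.053 (SE, adjusted p = 0.425) with everolimus, -0.031 ± 0.054 (SE, adjusted p = 0.637) with SGI-1027 and 0.0087 ± 0.054 (SE, adjusted p = 0.894) with both drugs.

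ACP5, the tartrate-resistant acid phosphatase best known from osteoclasts and macrophages, showed the largest member fold change, from the lowest level among the members with DMSO. Its raw counts were 3, 4 and 3 with DMSO, 14, 16 and 18 with everolimus, 63, 58 and 53 with SGI-1027, and 117, 99 and 145 with both drugs. The groups did not overlap. With so few DMSO counts, ACP5 passed the filter on low counts only through the treated groups. Its calls as higher are therefore not independent of that filter. Relative to the 10 counts of the DMSO libraries together, the level was 4.84-fold with everolimus (95% exact counting interval 2.42 to 10.7), 17.6-fold with SGI-1027 (9.32 to 37.3) and 36.7-fold with both drugs (19.7 to 77.2). The intervals cover counting error only. The edgeR log2 fold changes of ACP5 were 2.23 ± 0.41 (SE, adjusted p = 1.75e-04) with everolimus, 4.08 ± 0.34 (SE, adjusted p = 7.99e-09) with SGI-1027 and 5.13 ± 0.31 (SE, adjusted p = 8.22e-11) with both drugs, and the combination exceeded SGI-1027 by 1.05 ± 0.20 (SE, adjusted p = 9.53e-04). Even with the combination ACP5 held 0.0822% of the summed level of the members.

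By the cut-off given in the study's methods, an unadjusted p under 0.05 with a log2 fold change of at least 1 in size, 2 members were higher with everolimus (3.89% of all tested genes), 6 with SGI-1027 (6.25%) and 12 with both drugs (7.25%), while none was lower, beside 0.903%, 1.07% and 2.71% of all genes. The combination passed it against everolimus for 3 members (2.44%), which were NEU1, SGSH and ACP5, and against SGI-1027 for ACP5 alone (0.428%), with 0 lower (1.46% and 1.21%). SGI-1027 passed it against everolimus for ACP5 (1.53%) and was lower for 0 (0.265%). The interaction passed it below 0 for GAA and ACP5 (4.63%) and above 0 for none (1.14%). The 12 were GAA, IDUA, MANBA, NEU1, SGSH, ARSA, PSAP, NPC2, TPP1, GRN, DNASE2 and ACP5. ACP5 was tested only because of its counts in the treated groups. MANBA, ARSA and PSAP were within 0.05 of the limit.

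The combination was then set beside each single drug. Against everolimus alone, 27 members were higher and 2 lower (20.1% and 19.2% of all genes). Against SGI-1027 alone, 14 were higher and 1 lower (9.40% and 10.2%). By class the second comparison gave 4 of 14 glycan genes, 0 of 7 sulfate genes, 5 of 10 lipid genes, 3 of 7 peptide genes and 2 of 4 nucleic acid and phosphate genes that were higher, and LGMN was the one that was lower. SGI-1027 alone exceeded everolimus alone for 19 members and lay below it for SUMF1 and PRCP (13.0% and 9.51% of all genes), where the SUMF1 call was lost in 12 of 21 alternative settings. The routes of degradation were grouped after the values were seen. All 7 heparan sulfate genes (IDUA, IDS, SGSH, NAGLU, HGSNAT, GUSB and ARSG) rose with the combination, as did 85.7% of all members and 32.8% of all tested genes. None of the 7 passed the test against SGI-1027 alone in the fit of all libraries. IDUA passed it in 3 of 21 alternative settings, among them the fit without SGI-1027 library 3 (0.36, adjusted p = 0.0173). That library had the highest IDUA level of its group. Without SGI-1027 library 1 or 2 the IDUA difference was 0.21 or 0.19 (adjusted p = 0.281 and 0.319). SGSH passed the test in the settings given above. Of the 8 sphingolipid genes, GLB1, HEXA, ASAH1, PSAP and GM2A passed it and GLA, ARSA and SMPD1 did not. The difference between the routes was not tested. The GLB1 difference was called by a narrow margin (0.12 ± 0.041 SE, adjusted p = 0.0478) and lost in 12 of 21 alternative settings.

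The interaction term asks whether both drugs together moved a gene by more or less than their separate log2 changes added up. It was below 0 for 23 members and above 0 for 2 at an adjusted p under 0.05, beside 22.1% and 23.6% of all tested genes, with a median of -0.21. GAA showed one of the largest shortfalls at -1.14 ± 0.14 (SE, adjusted p = 2.39e-06), since its single-drug changes of 1.27 and 1.60 summed to far more than the 1.72 seen with both. FUCA1 (-0.95 ± 0.082 SE, adjusted p = 5.65e-08), HGSNAT (-0.95 ± 0.09 SE, adjusted p = 1.68e-07), SUMF1 (-0.71 ± 0.09 SE, adjusted p = 5.39e-06), ARSA (-0.68 ± 0.085 SE, adjusted p = 4.73e-06) and SIAE (-0.66 ± 0.10 SE, adjusted p = 3.22e-05) were also well below 0. For TPP1, PSAP and NPC2 the shortfall was smaller, at -0.27, -0.23 and -0.30. The 2 members above 0 were GLA, which fell less with both drugs than the sum of its single-drug falls (0.53 ± 0.092 SE, adjusted p = 1.44e-04), and NEU1 (0.16 ± 0.063 SE, adjusted p = 0.0492). The NEU1 call was lost in 12 of 20 alternative settings. No interaction value is independent of the dose question for everolimus alone.

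**Figure D5:**
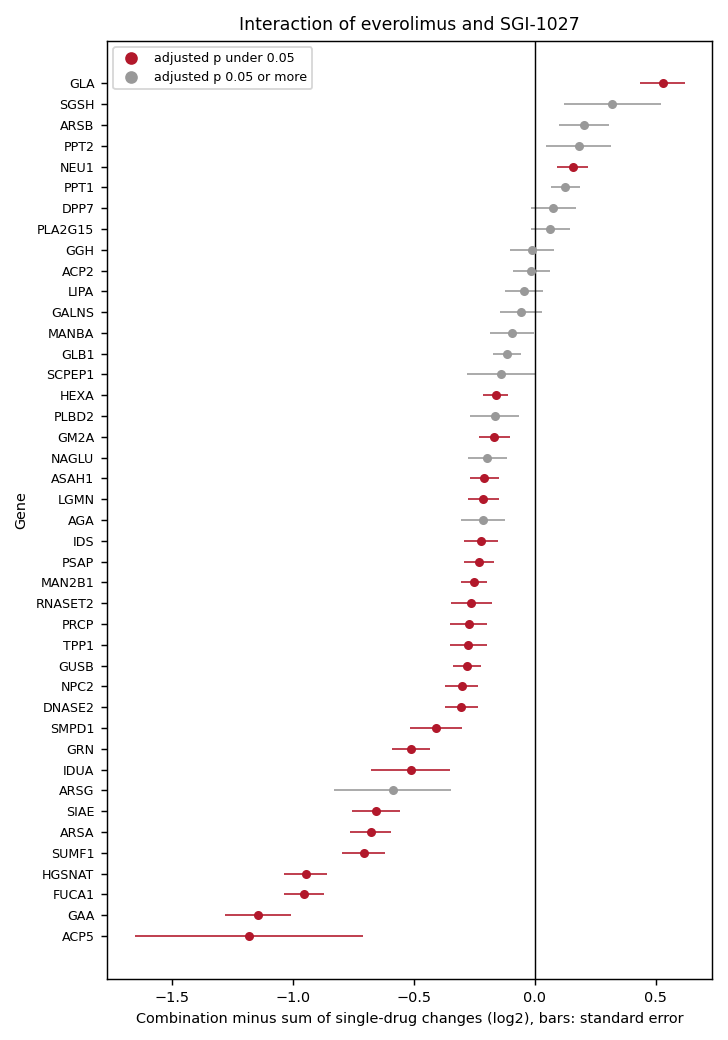
Interaction of the drugs for each of the 42 genes (vertical axis, sorted), as the combination log2 fold change minus the added single-drug changes (horizontal axis, bars are standard errors); red points have an adjusted p under 0.05. Red points below 0 number 23, those above 0 are GLA and NEU1, and ACP5 and GAA lie farthest to the left.

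Genes outside the list were compared for context. Of 18 further lysosomal hydrolases, 14 were tested, and 6 rose and 1 fell with everolimus, 8 rose and 2 fell with SGI-1027, and 7 rose and 1 fell with both drugs. The higher genes were 42.9% of the list with everolimus and 57.1% with SGI-1027, and 7 of 14 with both drugs, beside 27.2%, 32.0% and 32.8% of all tested genes. CTSA, the protective protein of NEU1 and GLB1, rose by 0.96 and PLD3, a lysosomal nuclease, by 0.88 with the combination, while HYAL2, a hyaluronidase, had a log2 fold change of -0.67. The 21 genes that tag and carry hydrolases to the lysosome were split about as all tested genes were. With everolimus 19.0% were higher and 33.3% lower (4 and 7 genes), beside 27.2% and 29.2% of all genes. SGI-1027 gave the same counts, beside 32.0% and 30.6%, and the combination gave 6 higher and 6 lower, 28.6% each, beside 32.8% and 33.4%. GNPTG, a subunit of the enzyme that makes the mannose 6-phosphate tag, had a combination log2 fold change of 0.82, SCARB2, the carrier of glucocerebrosidase, of 0.63, and IGF2R, a mannose 6-phosphate receptor, of 0.36. The adaptor genes AP1B1 and GGA2 stood at -0.59 and -0.58, and SURF4, a cargo receptor of the secretory pathway, at -0.48. The mRNA of the 3 MiT/TFE genes tested was lower with the combination, with log2 fold changes of -0.43 for TFEB, -0.48 for TFE3 and -0.52 for MITF. TFE3 was also lower with everolimus (-0.23) and with SGI-1027 (-0.32). TFEB was lower with everolimus (-0.20), and its -0.18 with SGI-1027 did not pass the test. MITF was higher with everolimus (0.28) and with SGI-1027 (0.23).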

How the data were processed

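RNA of 786-O cells was sequenced by the authors, and the deposited tables hold raw gene counts and FPKM for the 12 libraries. Each deposited FPKM, where checked in 12609 genes with at least 20 counts in some library, equals the count divided by the library total and by a whole-number gene length. Aligner, counter and use of strand are not given in the sources used here. The processing notes name the mouse builds GRCm38 and mm10, yet 98.5% of the symbols are human gene names. The labels and the methods name different RNA and library kits.

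Counts of 37046231 to 41516976 per library were tested with edgeR 4.0.16 in R 4.3.3 (limma 3.58.1, DESeq2 1.42.0 as alternatives). Genes were filtered with filterByExpr, scaled by TMM and fitted with the quasi-likelihood model over all 12 libraries in 1 fit of 4 groups. P-values were adjusted by Benjamini-Hochberg across 12841 genes in each of 7 contrasts, with calls at 0.05. The comparisons with DMSO share their control libraries. Standard errors were derived from the fold change and the F statistic. Normalized CPM are TMM-scaled. For levels between genes, FPKM were rescaled to total 1000000 per library. The fit was tested on simulated counts for the combination against DMSO, in which 199 of 200 genes changed by a log2 value of 1 were called with 10 false calls among 12740 genes. The simulation gave all genes the same variability, balanced rises and falls, and had no libraries that stood apart. It also changed far fewer genes than were called here, so it checks the code and not the calls in these data.

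The members and all gene lists were chosen with earlier results of these data known. Values per library are given for members with an adjusted p under 0.05 and a log2 fold change of at least 1 in size in a treated group against DMSO, for the highest and the lowest combination change in each class, and for interactions of at least 0.5 in size at an adjusted p under 0.05. LGMN was added after its values were seen. Exon overlaps are from GENCODE release 29 and promoter windows from RefSeq (GRCh38.p14). Same-numbered replicates did not deviate together (correlations of -0.35 to 0.09), so no block was fitted for the values given. Libraries of different groups and different numbers had correlations of -0.29 to 0.42, and the source of the highest was not tested.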

Additional observations from a re-analysis of the deposited data

Results flagged for a closer look

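For 25 members the combination differed from the added effects of the single drugs, by the interaction term of the edgeR fit at an adjusted p under 0.05. The term was below 0 for 23 and above 0 for 2 of the 42 members, beside 22.1% and 23.6% of all tested genes. The value is the combination log2 fold change minus the added log2 changes of the single drugs. Among glycan genes it was -1.14 for GAA, -0.95 for FUCA1, -0.95 for HGSNAT, -0.66 for SIAE, -0.51 for IDUA, -0.28 for GUSB, -0.25 for MAN2B1, -0.16 for HEXA, 0.16 for NEU1 and 0.53 for GLA. Among sulfate genes it was -0.71 for SUMF1, -0.68 for ARSA and -0.22 for IDS. Lipid genes gave -0.41 for SMPD1, -0.30 for NPC2, -0.23 for PSAP, -0.21 for ASAH1 and -0.17 for GM2A. Peptide genes gave -0.51 for GRN, -0.27 for TPP1, -0.27 for PRCP and -0.21 for LGMN. The nucleic acid and phosphate genes gave -1.18 for ACP5, -0.30 for DNASE2 and -0.26 for RNASET2. Some of these calls were narrow. The ACP5 call was lost in 16 of 19 alternative settings, among them limma on log2(FPKM + 0.1) with -0.14 (adjusted p = 0.588), and the value turned positive in limma on log2(FPKM + 1) at 0.34 (adjusted p = 0.0158). The GM2A call was lost in 13 of 20, NEU1 in 12 of 20 and RNASET2 in 5 of 20. Each of these values assumes that the everolimus group and the combination received the same everolimus dose, which the sample labels and the methods state and the deposited treatment protocol does not.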

How the results depend on the processing

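Against DMSO, 15 of 2643 member calls changed over 21 alternative settings, and 2 of the 1320 for the named members. Of 6125 single-gene values in all contrasts, 115 lost the call, 83 gained it and 1 turned, the ACP5 interaction, at 0.34 with limma on log2(FPKM + 1), adjusted p = 0.0158. That call was also lost in 16 of 19 settings (GM2A 13 of 20, NEU1 12 of 20). With the cut-off of the study in place of the adjusted p, 2 members were higher with everolimus, 6 with SGI-1027, 12 with the combination, 3 and 1 for the combination against everolimus and SGI-1027, and 1 for SGI-1027 against everolimus, with 0 lower in each, and the interaction had 0 above and 2 below 0. Past that cut-off, everolimus had 1 with at least 10 counts in every library and 0 with log2(FPKM + 1), SGI-1027 had 3 with log2(FPKM + 1), and the combination against SGI-1027 had 0 with at least 10 counts, with log2(FPKM + 1), with log2(FPKM + 0.1), and without SGI-1027 library 3 or combination library 3 (range 0 to 1 leaving out single libraries). The replicate block, a fit with the replicate number as a term, left 1 lower member for the combination against everolimus, 1 lower for SGI-1027 against everolimus and 1 interaction above 0, and moved no other count by over 1.5 times. For the combination against everolimus the lower members were 0 with log2(FPKM + 1) and 0 with log2(FPKM + 0.1), and 0 to 2 when single libraries were left out. For SGI-1027 against everolimus they were 1 with both FPKM scales and 0 to 2 without single libraries. SGI-1027 against DMSO had 1 to 2 lower members without single libraries, with 2 when SGI-1027 library 3 was out. Interactions above 0 numbered 1 with upper-quartile scaling, 1 with at least 10 counts, 4 with log2(FPKM + 1) and 1 to 2 without single libraries. Leaving out DMSO library 1 and SGI-1027 library 3 together, an alternative chosen after seeing the data, gave 4 lower members for the combination against everolimus, 2 lower and 0 past the cut-off of the study for the combination against SGI-1027. Filtering at 10 counts removes ACP5 by construction; the cause of the other shifts was not tested. Upper-quartile scaling moved the median of all genes by less than 0.1 on the log2 scale. Counts of 3 to 4 per DMSO library limit the precision of the ACP5 fold changes.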
